A study of Mus musculus with 2 samples.

Results

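Liver sinusoidal endothelial cells (LSEC) were taken from single-cell RNA counts of the livers of 2 mice by the transcripts each cell held. A cell was a member when Kdr, Ptprb, Clec4g, Gpr182, Ehd3, Bmp2, Gpihbp1, Igfbp7 and F8 together made up at least 0.2% of its UMIs (unique molecular identifiers, 1 per captured RNA molecule), with at least 3 of these 9 genes detected. In addition, the Kupffer cell genes Cd5l, Marco, Slc40a1, Clec4f and Vsig4 together had to stay under 1%. Cells entered only if they held 1000 UMIs and 500 genes or more and no more than 15% mitochondrial UMIs, and shares were taken over UMIs without the 4 hemoglobin genes Hba-a1, Hba-a2, Hbb-bs and Hbb-bt. This gave 2235 members of 25418 cells: 1514 of 13846 in the Ter119 mouse and 721 of 11572 in the saline mouse.

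Both animals were C57BL/6J mice of 7 to 10 weeks. The Ter119 mouse received the antibody Ter119, which binds mouse red blood cells, under the skin as 1 dose of 35 ug followed by 10 daily doses of 10 ug, while the saline mouse received a similar volume of saline. Livers were taken 24 after the last injection (the unit is not given), and beads against the macrophage and myeloid surface proteins F4/80 and CD11b were used for enrichment. Cells carried hashtag antibodies, were pooled at equal number and were run on a 10x 3′ v3.1 kit with a target of 10000 cells. How the pooled cells gave 1 count matrix per mouse is not stated. There is 1 mouse and 1 matrix per treatment, so no difference below has a replicate check or a p-value. The treatment cannot be told apart from the mouse, its matrix or, if libraries were separate, its library. Since the enrichment selected for macrophages, LSEC are cells carried along with it, and their share is not their share of the liver.

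LSEC form the fenestrated wall of the liver sinusoid, between the blood and the hepatocytes. They take up waste molecules from blood through scavenger receptors such as Stab1, Stab2, Mrc1 and Fcgr2b, and they send signals to hepatocytes, among them Wnt2 and Rspo3 near the central vein. Through Bmp2 and Bmp6 they set how much hepcidin, the hormone that limits iron release into blood, hepatocytes make. Kupffer cells, the resident macrophages of the same sinusoids, take up damaged and antibody-coated red blood cells.

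Depth differed between the mice and touches most of the values below. Members had a median of 1518 UMIs in the Ter119 mouse and 3526 UMIs in the saline mouse. The UMIs without hemoglobin summed over members came to 2657861 in the Ter119 mouse and 2655929 in the saline mouse. Hemoglobin made up 10.4% of member UMIs in the Ter119 mouse, against 0.00169% in the saline mouse, and stood at 10.8% over all filtered cells of the Ter119 mouse. The median mitochondrial share of members was 5.84% in the Ter119 mouse and 9.08% in the saline mouse. Of the barcodes, 133 occurred in both matrices, of which 2 belonged to Ter119 members and 7 to saline members. Levels below are counts scaled by the UMIs without hemoglobin (CPM, which sum to 1e6 over all other genes), and every interval is an exact 95% interval that covers counting error only.

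**Figure D1:**
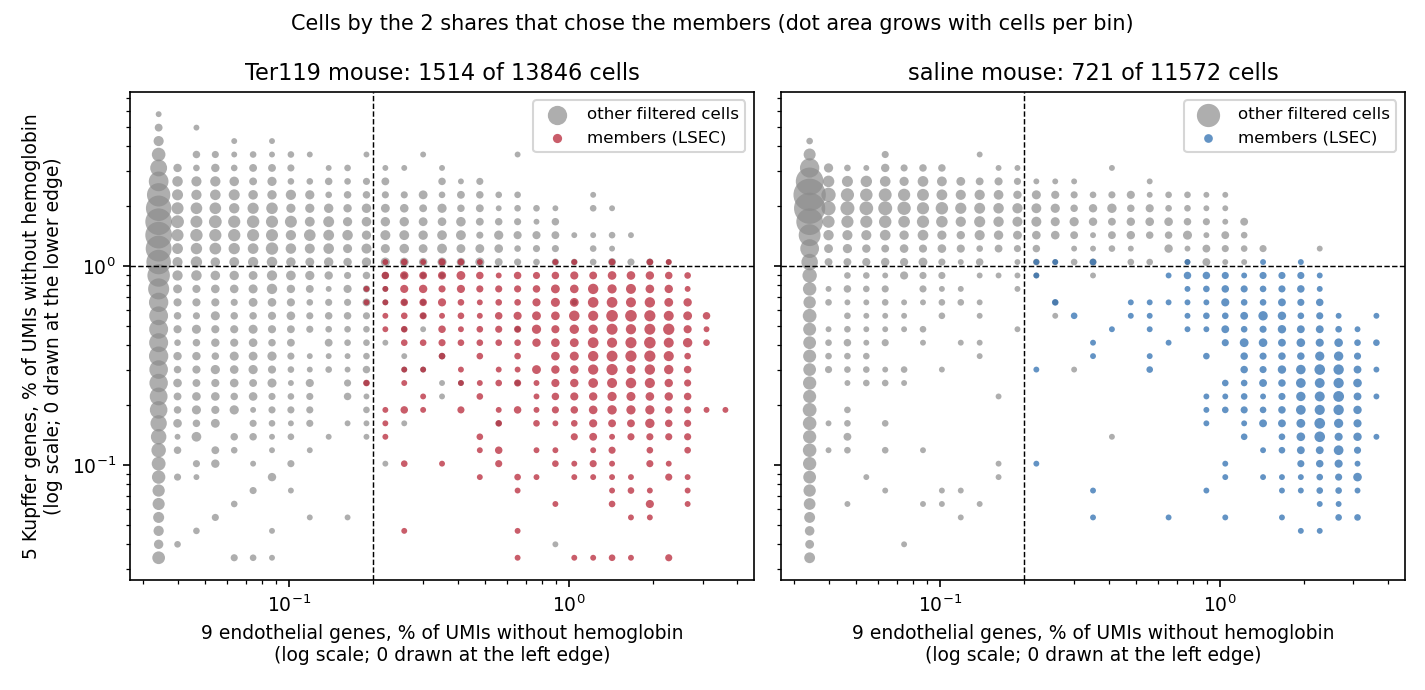
Share of UMIs in the 9 endothelial genes (x axis, %, log scale) against the share in the 5 Kupffer genes (y axis, %, log scale) for all filtered cells, with the Ter119 mouse on the left and the saline mouse on the right. Dots stand at the centres of bins, their area grows with the number of cells, colored dots are members and dashed lines are the limits, so a bin cut by a limit can hold both kinds. The members form a cloud at 1 to 3% endothelial share in both mice, and the Ter119 mouse has more members between that cloud and the 0.2% limit.

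The defining markers Kdr, Ptprb, Clec4g, Gpr182, Ehd3 and Bmp2 are among the 9 genes of the rule, so that their detection was largely fixed by the choice of members. At least 3 of these 6 were detected in 96.8% of Ter119 members and 98.8% of saline members. The same held for 2.92% in the Ter119 mouse and 7.95% in the saline mouse of the cells over the Kupffer limit alone, called Kupffer-limit cells from here on. In the remaining cells under both limits, called other cells, it held for 0.854% in the Ter119 mouse and 2.03% in the saline mouse. Markers of lymphatic endothelium (Prox1, Pdpn, Mmrn1 and Ccl21a) summed to 1.88 CPM in Ter119 members and 13.9 CPM in saline members, with Mmrn1 and Ccl21a at 0 in both. Vwf, a marker of larger vessels, had 25 UMIs in Ter119 members and 2 UMIs in saline members. The sum of the list of 12 large vessel genes that holds Vwf did not share this order. The list summed to 546 CPM in Ter119 members and 694 CPM in saline members. Of its 5 genes with enough counts to compare, none was past 2-fold either way, with a median log2 ratio of -0.43. Most of its genes with too few counts to compare had the order of Vwf. Their log2 ratios, Ter119 over saline, were 4.04 for Selp, 2.87 for Hey1, 2.58 for Edn1 and 2.17 for Col15a1. Gja5 had UMIs in Ter119 members only, while Fbln2 was lower in Ter119 members. These ratios rest on few UMIs. Since the rule chose members by expression, these values and the comparison with other cells are a description.

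Genes that the rule did not use were also concentrated in the members. Of 6603 genes with enough counts in the Ter119 mouse, 642 (9.72%) were at least 5-fold higher in LSEC than in all other filtered cells, and in the saline mouse it was 777 of 6898 (11.3%). Among the 20 genes with the highest such ratio in both mice was Oit3, a secreted liver protein gene, at 726 CPM in LSEC and 16.6 CPM in the rest of the Ter119 mouse, and at 1093 CPM in LSEC and 14.3 CPM in the rest of the saline mouse. Lyve1, the hyaluronan receptor used as an LSEC marker, had 351 CPM in LSEC and 8.41 CPM in the rest of the Ter119 mouse, and 533 CPM in LSEC and 8.43 CPM in the rest of the saline mouse. For Dll4, a Notch ligand, it was 66.6 CPM in LSEC and 1.53 CPM in the rest of the Ter119 mouse, and 102 CPM in LSEC and 1.76 CPM in the rest of the saline mouse. Both genes were thus far more abundant in members than in the rest. Clec14a (a vascular lectin), Gja1 (a gap junction protein), Pxdn (a peroxidase of the basement membrane), Enpep (an aminopeptidase that cuts angiotensin) and Sema3f (a guidance molecule) were among the same 20.

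The limits of the rule cut through a thin range of cells. Just inside the endothelial limit, at a share of 0.2 to 0.3%, lay 64 Ter119 members and 7 saline members, and just outside it, at 0.1 to 0.2%, lay 160 Ter119 cells and 25 saline cells. The 64 Ter119 members had a median of 3924 UMIs and a Kupffer share of 0.677%, against 2179 UMIs and 0.672% for the 7 saline members. Just inside the Kupffer limit, at 0.75 to 1%, lay 179 Ter119 members and 49 saline members, and just outside it, at 1 to 1.25% with the endothelial criteria met, lay 132 Ter119 cells and 39 saline cells. Another 426 Ter119 cells and 304 saline cells were over both limits and were not counted as members. The Kupffer share of members had a median of 0.427% in the Ter119 mouse and 0.259% in the saline mouse, and other cells stood at 0.419% in the Ter119 mouse and 0.258% in the saline mouse. Only 8 Ter119 members and 0 saline members held no UMI of the 5 Kupffer genes.

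LSEC made up 10.9% of the filtered cells in the Ter119 mouse (10.4 to 11.5%) and 6.23% in the saline mouse (5.80 to 6.69%). The order of the mice turned with depth. Among cells under 2000 UMIs LSEC were 23.4% in the Ter119 mouse and 11.1% in the saline mouse, and among cells of at least 2000 UMIs they were 4.66% in the Ter119 mouse and 5.39% in the saline mouse. With the Kupffer limit at 0.25% in place of 1% they were 2.18% in the Ter119 mouse and 2.94% in the saline mouse. The bead enrichment and the depth of each matrix both bear on these shares and their part was not tested.

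How endothelial transcripts compared between the mice turned with depth. To follow this, 716 endothelial-enriched genes outside the rule (9.81% of 7298) were summed, each of them at least 5-fold higher in LSEC than in Kupffer-limit cells and in other cells of the mouse with the higher LSEC level. They made up 12.5%, 11.6%, 9.63% and 5.63% of UMIs in Ter119 members of 1000 to 1500, 1500 to 2000, 2000 to 3000 and at least 3000 UMIs, against 9.80%, 11.1%, 13.2% and 15% in saline members of the same depths. Their share thus shrank with depth in the Ter119 mouse and grew in the saline mouse. The set is not purely endothelial, since it holds all 8 stellate cell and fibroblast markers that were compared. Below 2000 UMIs the share of the 716 genes was 1.18-fold higher in Ter119 members, and at 2000 UMIs and over the ratio was 0.490. Since a gene could enter through 1 mouse alone, the 594 genes at least 5-fold higher in each mouse were summed as well, and gave ratios of 1.23 below 2000 UMIs and 0.469 at 2000 UMIs and over. Members were also grouped by endothelial share, at 0.2 to 0.5%, 0.5 to 1%, 1 to 2% and at least 2%. The 716 genes then made up 3.40%, 8.21%, 12.2% and 13.3% in Ter119 members. In saline members it was 3.55%, 7.91%, 12.6% and 16.0%. This grouping used the endothelial genes of the rule. Its lowest class held 149 Ter119 members with 510054 UMIs without hemoglobin, and 18 saline members with 84202. What lies behind the turn with depth was not tested.

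Markers of some other cell types were higher in deep Ter119 members than in shallow ones. The 8 neutrophil markers, chiefly S100a8, S100a9, Camp and Ngp, summed to 1913, 3661, 4600 and 14743 CPM over the same depths in Ter119 members, against 71.4, 106, 2199 and 1084 CPM in saline members. The 16 further Kupffer cell markers summed to 6875, 6901, 8814 and 15289 CPM in Ter119 members and 9809, 8044, 5868 and 4195 CPM in saline members. Hepatocyte markers went the other way, at 1017, 994, 835 and 831 CPM in Ter119 members and 5865, 4890, 4046 and 2624 CPM in saline members. In the 4 classes of endothelial share, low to high, the neutrophil sum was 17314, 11920, 1326 and 693 CPM in Ter119 members. In saline members it was 22434, 491, 1182 and 56.1 CPM. The further Kupffer markers summed to 18488, 10856, 6492 and 5793 CPM in Ter119 members and 10202, 9315, 6562 and 3576 CPM in saline members. Both sums were thus largest in the class of lowest endothelial share. Over all members the neutrophil sum was 6194 CPM in the Ter119 mouse and 1085 CPM in the saline mouse, beside 41837 CPM in other cells of the Ter119 mouse and 12130 CPM in other cells of the saline mouse. At least 2 of the neutrophil markers were detected in 14.0% of Ter119 members and 1.25% of saline members. Of the Kupffer cell markers none was at 0 in either mouse, and their sum was 9474 CPM in Ter119 members and 4837 CPM in saline members. The part of these other transcripts in the values below was not tested, and the main levels that differ with depth are given for members under 2000 UMIs and for members of at least 2000 UMIs, called shallow and deep.

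**Figure D2:**
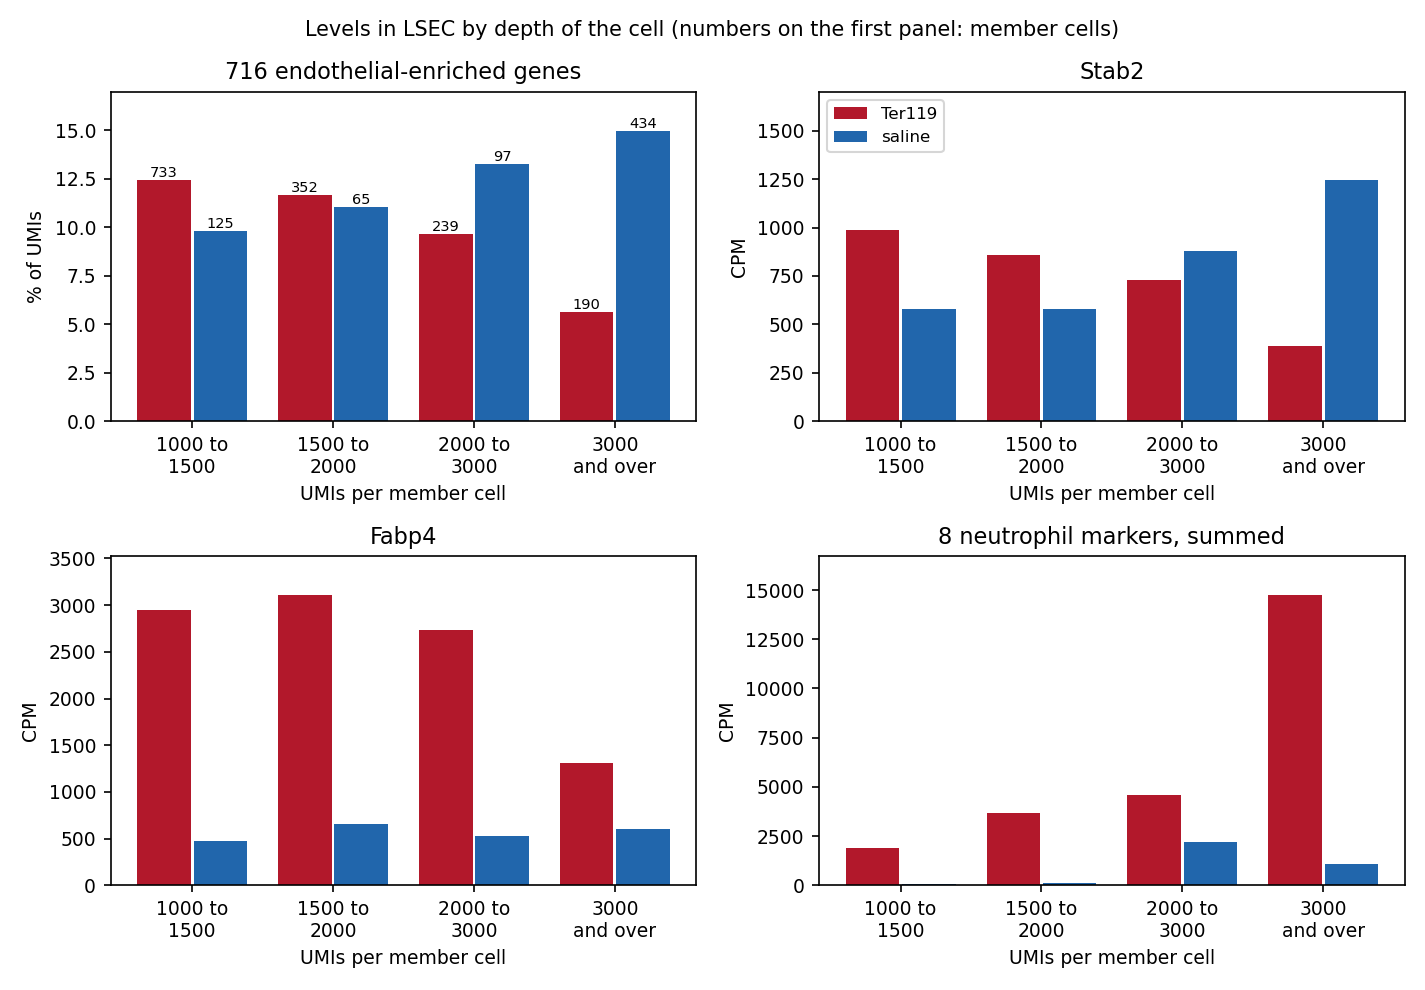
Levels in LSEC by UMIs per member cell (x axis, 4 depth classes, low to high) in the Ter119 mouse (red) and the saline mouse (blue). The 716 endothelial-enriched genes are a share of UMIs in %, and Stab2, Fabp4 and the 8 neutrophil markers are in CPM; numbers on the bars of the first panel are member cells. Endothelial-enriched genes and Stab2 were higher in Ter119 members in the 2 shallow classes and lower in the 2 deep ones, while Fabp4 and the neutrophil sum were higher in all 4.

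Between the mice, 7312 genes had at least 20 CPM in members of 1 mouse and were compared. In Ter119 LSEC, 344 of these (4.7%) stood past 2-fold higher and 384 (5.25%) past 2-fold lower, with a median log2 ratio of -0.15. Of the 716 endothelial-enriched genes, 23 (3.21%) were past 2-fold higher and 164 (22.9%) past 2-fold lower, with a median of -0.62. Of the 23 higher ones, 2 were on the list of stellate cell and fibroblast markers. Of the 594 enriched in each mouse, 13 (2.19%) were past 2-fold higher and 144 (24.2%) past 2-fold lower, with a median of -0.66. The median of the 716 was 0.20 in members under 2000 UMIs and -1.18 in members of at least 2000 UMIs. When levels were taken per UMI of the endothelial-enriched genes in place of per UMI, a scaling added after seeing the data, the median of all genes moved to 0.37 and the counts became 938 (12.8%) higher and 99 (1.35%) lower. Of the endothelial-enriched genes, 54 (7.54%) were then higher and 24 (3.35%) lower. Of the 77 named genes past 2-fold, 41 of the 43 higher ones and 28 of the 34 lower ones kept their direction in both depth classes. Past 2-fold in both classes were 27 of the 43 and 12 of the 34. Many of these genes were named for their ratio over all members, which the 2 classes make up. Their kept direction was thus largely fixed by that choice and is no separate support.

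A small set of genes largely restricted to endothelium stood higher in Ter119 LSEC at both depths. Steap2, an endosomal reductase of iron and copper ions (chr5:5664829-5694578, build GRCm38), had 67.7 CPM in Ter119 LSEC (180 UMIs) and 2.26 CPM in saline LSEC (6 UMIs), a ratio of 30.0 (13.5 to 82.8). It was at 1.09 CPM in Kupffer-limit cells and 0.880 CPM in other cells of the Ter119 mouse, far below LSEC. Under 2000 UMIs it had 91.4 CPM in Ter119 members and 7.47 CPM in saline members, and in deeper members 38.6 CPM in the Ter119 mouse and 1.67 CPM in the saline mouse. After thinning each cell to 1000 UMIs, a Steap2 UMI was found in 7.23% of 1452 Ter119 members (11.1% unthinned) and 0.277% of 721 saline members (0.555% unthinned), with 62 Ter119 members left out as too shallow.

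Fabp4, a fatty acid carrier of capillary endothelium (chr3:10204088-10208576), was another gene of this set. It had 2506 CPM in Ter119 LSEC and 587 CPM in saline LSEC, a ratio of 4.27 (4.04 to 4.52). The level was 3008 CPM in Ter119 members and 549 CPM in saline members under 2000 UMIs, and 1889 CPM in Ter119 members and 591 CPM in saline members at 2000 UMIs and over. In thinned cells a Fabp4 UMI was present in 78.5% of Ter119 members (87.3% unthinned) and 33.6% of saline members (58.9% unthinned), beside 13.8% of Kupffer-limit cells in the Ter119 mouse (32.3% unthinned) and 1.19% in the saline mouse (6.43% unthinned). Most Ter119 members thus held a Fabp4 UMI even at that depth, and a minority of saline members did.

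Armcx4 (chrX:134686519-134696757) had 176 CPM in Ter119 LSEC and 38.8 CPM in saline LSEC, a ratio of 4.53 (3.65 to 5.66), and was found in 17.1% of thinned Ter119 members (23.6% unthinned) and 3.19% of thinned saline members (11.8% unthinned). Clca3a1, of the chloride channel accessory family, had 101 CPM in Ter119 LSEC and 32.8 CPM in saline LSEC (3.08, 2.41 to 3.97), and was higher in Ter119 members at both depths. Akr1b8, an aldo-keto reductase that detoxifies aldehydes (chr6:34354119-34368463), had 386 CPM in Ter119 LSEC and 154 CPM in saline LSEC, and 471 CPM in Ter119 members against 187 CPM in saline members under 2000 UMIs. All 3 genes were at least 5-fold lower in Kupffer-limit cells and other cells of both mice than in LSEC. The mouse difference itself was not particular to LSEC. In Kupffer-limit cells the ratio of Ter119 over saline was 3.08 for Steap2, 14.8 for Fabp4, 5.94 for Armcx4 and 1.91 for Clca3a1. For Akr1b8 it was 21.2, from 42.1 CPM in the Ter119 mouse and 1.99 CPM in the saline mouse. The metal-binding Mt1 had 1868 CPM in Ter119 LSEC and 898 CPM in saline LSEC (2.08, 1.98 to 2.19), and the imprinted gene Mest had 155 CPM in Ter119 LSEC and 74.2 CPM in saline LSEC (2.09, 1.76 to 2.50). Socs2, a feedback inhibitor of cytokine signaling, was not among the endothelial-enriched genes. It had 99.3 CPM in Ter119 LSEC and 35.4 CPM in saline LSEC. With levels limited to cells of at most 5% mitochondrial UMIs, the Socs2 log2 ratio was 0.22, in place of 1.49 over all members.

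**Figure D3:**
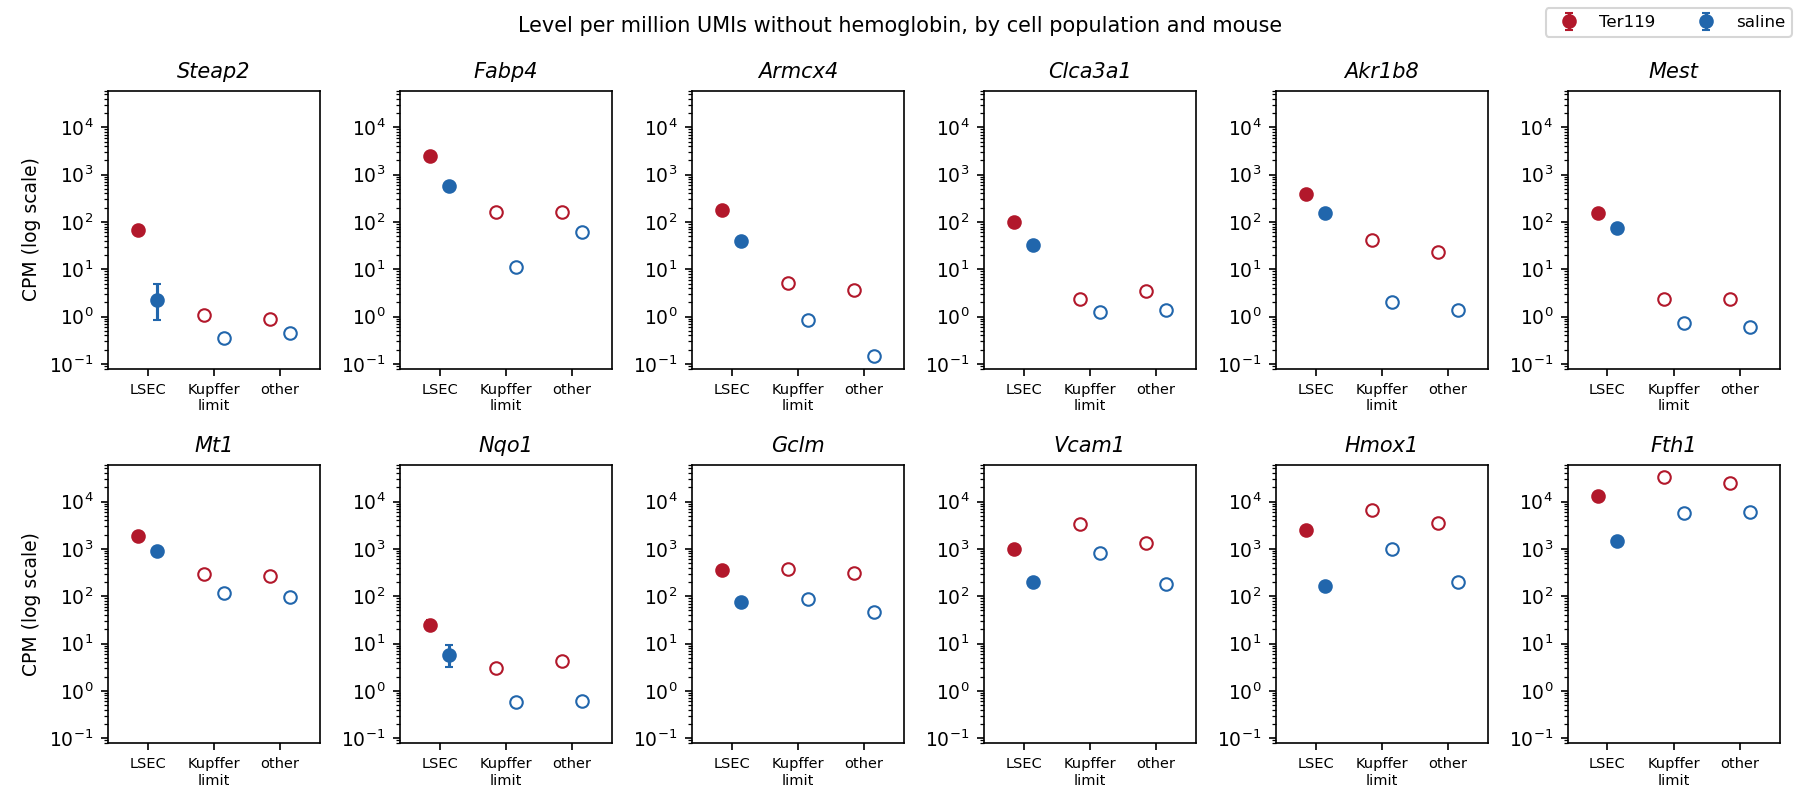
Level of 12 genes in CPM (y axis, log scale) in LSEC, in Kupffer-limit cells and in other cells (x axis), in the Ter119 mouse (red) and the saline mouse (blue). Filled points are LSEC with an exact 95% counting interval, which is often smaller than the point, and open points are the other populations. Steap2, Fabp4, Armcx4, Clca3a1, Akr1b8, Mest, Mt1 and Nqo1 are highest in LSEC, whereas Vcam1, Hmox1 and Fth1 are higher in Kupffer-limit cells than in LSEC in both mice.

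Of 16 genes of heme and iron handling compared, 6 were past 2-fold higher in Ter119 LSEC and none past 2-fold lower. Of all genes compared, 4.7% were past 2-fold higher and 5.25% past 2-fold lower. The 6 were Hmox1, Fth1, Ftl1, Slc48a1, Blvra and Blvrb. The log2 ratios of the others ran from -0.67 for Ireb2, an iron regulatory protein, to 0.90 for Ncoa4. The median of 0.29 turned to -0.09 with the Kupffer limit at 0.25%. Hmox1, the enzyme that breaks heme down, had 2465 CPM in Ter119 LSEC and 168 CPM in saline LSEC, a ratio of 14.7 (13.3 to 16.2). It reached 6694 CPM in Kupffer-limit cells and 3574 CPM in other cells of the Ter119 mouse, and 975 CPM in Kupffer-limit cells and 200 CPM in other cells of the saline mouse. The Hmox1 level in LSEC moved with their Kupffer share: at shares under 0.25%, 0.25 to 0.5% and 0.5 to 1% it was 1272, 1867 and 3555 CPM in Ter119 members and 120, 152 and 437 CPM in saline members. It was thus higher in Ter119 members in each of these classes, and how much of it is RNA of other cells was not tested.

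Ferritin, which stores iron, showed the same order. The heavy chain Fth1 had 13414 CPM in Ter119 LSEC and 1450 CPM in saline LSEC, and 32640 CPM in Kupffer-limit cells of the Ter119 mouse and 5642 CPM in those of the saline mouse. The light chain Ftl1 had 11145 CPM in Ter119 LSEC and 2436 CPM in saline LSEC. Both have near-identical pseudogenes, so their counts are uncertain. Slc48a1, which carries heme out of lysosomes, had 199 CPM in Ter119 LSEC and 61.4 CPM in saline LSEC. The biliverdin reductases, which act after Hmox1, stood at 108 CPM in Ter119 LSEC and 46.3 CPM in saline LSEC for Blvra, and at 490 CPM in Ter119 LSEC and 178 CPM in saline LSEC for Blvrb. Ncoa4, the receptor that takes ferritin to lysosomes, had 171 CPM in Ter119 LSEC and 91.9 CPM in saline LSEC and did not pass 2-fold.

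Targets of NRF2, the transcription factor that answers oxidative and electrophilic stress, formed the list with the most genes past 2-fold higher. Of 17 compared, 13 were past 2-fold higher in Ter119 LSEC and none past 2-fold lower, where 4.7% of all genes were higher. The median log2 ratio was 1.38, and over the same 17 genes it was 0.98 under 2000 UMIs and 1.48 at 2000 UMIs and over. Over the alternatives of processing, most of which applied the 20 CPM filter anew and so compared other members of the list, it ran from 1.04 to 1.91. Gclm, a subunit of the enzyme that starts glutathione synthesis (chr3:122245557-122270732), had 353 CPM in Ter119 LSEC and 75.7 CPM in saline LSEC, a ratio of 4.66 (4.0 to 5.46). Its level was much the same in Kupffer-limit cells, at 384 CPM in the Ter119 mouse and 87.2 CPM in the saline mouse.

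Nqo1, a quinone reductase (chr8:107388225-107403206), was the member of the list that was mostly endothelial. It had 24.5 CPM in Ter119 LSEC (65 UMIs) and 5.65 CPM in saline LSEC (15 UMIs), a ratio of 4.33 (2.44 to 8.18). Kupffer-limit cells had 3.02 CPM in the Ter119 mouse and 0.593 CPM in the saline mouse. All 15 saline UMIs lay in members of at least 2000 UMIs. Prdx1, which reduces peroxides, had 2533 CPM in Ter119 LSEC and 863 CPM in saline LSEC, and Txn1, which reduces protein thiols, had 1219 CPM in Ter119 LSEC and 474 CPM in saline LSEC. The glutathione transferase Mgst1 had 264 CPM in Ter119 LSEC and 72.3 CPM in saline LSEC. These genes are expressed well beyond endothelium. The whole NRF2 list summed to 6266 CPM in Ter119 LSEC and 2373 CPM in saline LSEC. In Kupffer-limit cells it summed to 9108 CPM in the Ter119 mouse and 4107 CPM in the saline mouse, so the higher sum was not particular to LSEC. G6pdx, the first enzyme of the pentose phosphate pathway, had 54.9 CPM in Ter119 LSEC and 16.2 CPM in saline LSEC, while Mafg, a small Maf partner of NRF2, had 130 CPM in Ter119 LSEC and 131 CPM in saline LSEC.

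NRF2 binds DNA with small Maf proteins at the antioxidant response element, whose core was searched as TGACNNNGC on both strands of 300-base promoters from 250 bases before to 50 after each gene start (RefSeq, GRCm38.p6). Of the 19 genes of the list 15 had a promoter in the table and 8 of these held a match, and of all 27025 genes 14.0% did. The promoters of 3 list genes past 2-fold are shown, with the match at a similar distance in Gclm and Prdx1 and nearer the gene start in Mgst1. They run 5′ to 3′ on the plus strand, and capitals mark the match, which reads on the opposite strand in all 3. The match starts 134 bases before the gene start in Gclm (chr3:122245307-122245606), 133 before in Prdx1 (chr4:116685349-116685648) and 56 before in Mgst1 (chr6:138140277-138140576).
Gclm: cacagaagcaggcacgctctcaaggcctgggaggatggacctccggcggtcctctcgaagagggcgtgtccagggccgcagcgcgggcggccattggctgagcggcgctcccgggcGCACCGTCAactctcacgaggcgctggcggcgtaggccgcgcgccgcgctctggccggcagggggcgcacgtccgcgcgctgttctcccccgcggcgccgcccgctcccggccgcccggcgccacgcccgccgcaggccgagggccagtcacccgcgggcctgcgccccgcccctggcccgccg
Prdx1: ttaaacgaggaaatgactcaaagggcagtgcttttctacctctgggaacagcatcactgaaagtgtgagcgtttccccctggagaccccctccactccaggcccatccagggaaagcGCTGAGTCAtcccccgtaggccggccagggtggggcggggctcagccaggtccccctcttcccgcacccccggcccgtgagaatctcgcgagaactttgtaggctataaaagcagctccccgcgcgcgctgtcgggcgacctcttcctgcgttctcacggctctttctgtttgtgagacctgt
Mgst1: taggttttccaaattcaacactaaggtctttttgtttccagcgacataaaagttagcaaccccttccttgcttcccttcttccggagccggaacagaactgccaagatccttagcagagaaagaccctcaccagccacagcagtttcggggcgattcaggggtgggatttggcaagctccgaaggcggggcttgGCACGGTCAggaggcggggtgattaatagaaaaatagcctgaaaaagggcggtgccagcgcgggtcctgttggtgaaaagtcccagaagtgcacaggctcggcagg
A match is a string of letters in this window and not a measured site. The window of Nqo1 held none, which says only that these letters are not in it.

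Of 12 glycolysis genes compared, 6 were past 2-fold higher in Ter119 LSEC and none past 2-fold lower. Of all genes compared, 4.7% were past 2-fold higher. The median log2 ratio of the glycolysis genes was 1.18, at 0.81 in shallow and 1.35 in deep members. Those not past 2-fold ran from -0.19 for Pfkfb3, which makes an activator of the pathway, to 0.98 for Pgam1. Gapdh, of the middle of the pathway, had 825 CPM in Ter119 LSEC and 264 CPM in saline LSEC, and Eno1 had 152 CPM in Ter119 LSEC and 41.8 CPM in saline LSEC. The whole glycolysis list summed to 3178 CPM in Ter119 LSEC and 1296 CPM in saline LSEC. In Kupffer-limit cells it summed to 4257 CPM in the Ter119 mouse and 1722 CPM in the saline mouse. Other cells had 4739 CPM in the Ter119 mouse and 2718 CPM in the saline mouse, so the higher sum was not particular to LSEC. In lipid handling, 5 of 13 genes were past 2-fold higher and 1 past 2-fold lower, with a median of 0.30. The shares over all genes were 4.7% higher and 5.25% lower. The tetraspanin Cd63, found in late endosomes, had 321 CPM in Ter119 LSEC and 20.3 CPM in saline LSEC (15.8, 12.0 to 21.2), beside 641 CPM in Kupffer-limit cells of the Ter119 mouse and 7.00 CPM in those of the saline mouse. Fabp5, another fatty acid carrier, had 980 CPM in Ter119 LSEC and 282 CPM in saline LSEC. Lpl, the lipase that Gpihbp1 holds on the vessel wall, had 743 CPM in Ter119 LSEC and 173 CPM in saline LSEC. Its ratio was 1.63 in members under 2000 UMIs and 6.58 in deeper ones, and Kupffer-limit cells held more of it, at 2735 CPM in the Ter119 mouse and 1670 CPM in the saline mouse. The adhesion molecule Vcam1 had 993 CPM in Ter119 LSEC and 197 CPM in saline LSEC, and 3303 CPM in Kupffer-limit cells of the Ter119 mouse and 823 CPM in those of the saline mouse.

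Genes of endothelial identity had no common direction once depth was set apart. Over all members, 4 of 24 pan-endothelial genes were past 2-fold lower in Ter119 LSEC and none past 2-fold higher, with a median log2 ratio of -0.76. Past 2-fold lower were 5.25% of all genes and 22.9% of the endothelial-enriched genes. In members under 2000 UMIs none of the 24 was past 2-fold either way and the median was 0.26. In deeper members 20 of 24 were past 2-fold lower and the median was -1.40. At that depth 14.2% of all genes and 61.7% of the endothelial-enriched genes were past 2-fold lower. The LSEC identity list gave medians of 0.40 in shallow and -1.20 in deep members, and the receptors for VEGF and angiopoietin 0.02 and -1.34. Notch genes stood at 0.32 in shallow and -1.26 in deep members, and genes of flow, vascular tone and coagulation at 0.17 and -1.17.

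Scavenger receptors followed the same split. Stab2, which clears hyaluronan and other waste (chr10:86841198-87008025), had 938 CPM in Ter119 members and 579 CPM in saline members under 2000 UMIs, and 524 CPM in Ter119 members and 1208 CPM in saline members at 2000 UMIs and over. Its relative Stab1 had 895 CPM in Ter119 and 661 CPM in saline shallow members, and 457 CPM in Ter119 and 1227 CPM in saline deep members. The mannose receptor Mrc1 had 1651 CPM in Ter119 and 1580 CPM in saline shallow members, and 1016 CPM in Ter119 and 2310 CPM in saline deep members. All 3 were lower in Ter119 members among deep cells and not among shallow ones. In thinned cells a Stab2 UMI was found in 56.5% of Ter119 members (70.2% unthinned) and 58.5% of saline members (82.2% unthinned). The lysosomal protease Ctsb had 4161 CPM in Ter119 LSEC and 1639 CPM in saline LSEC, and 10726 CPM in Kupffer-limit cells of the Ter119 mouse and 6734 CPM in those of the saline mouse.

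**Figure D4:**
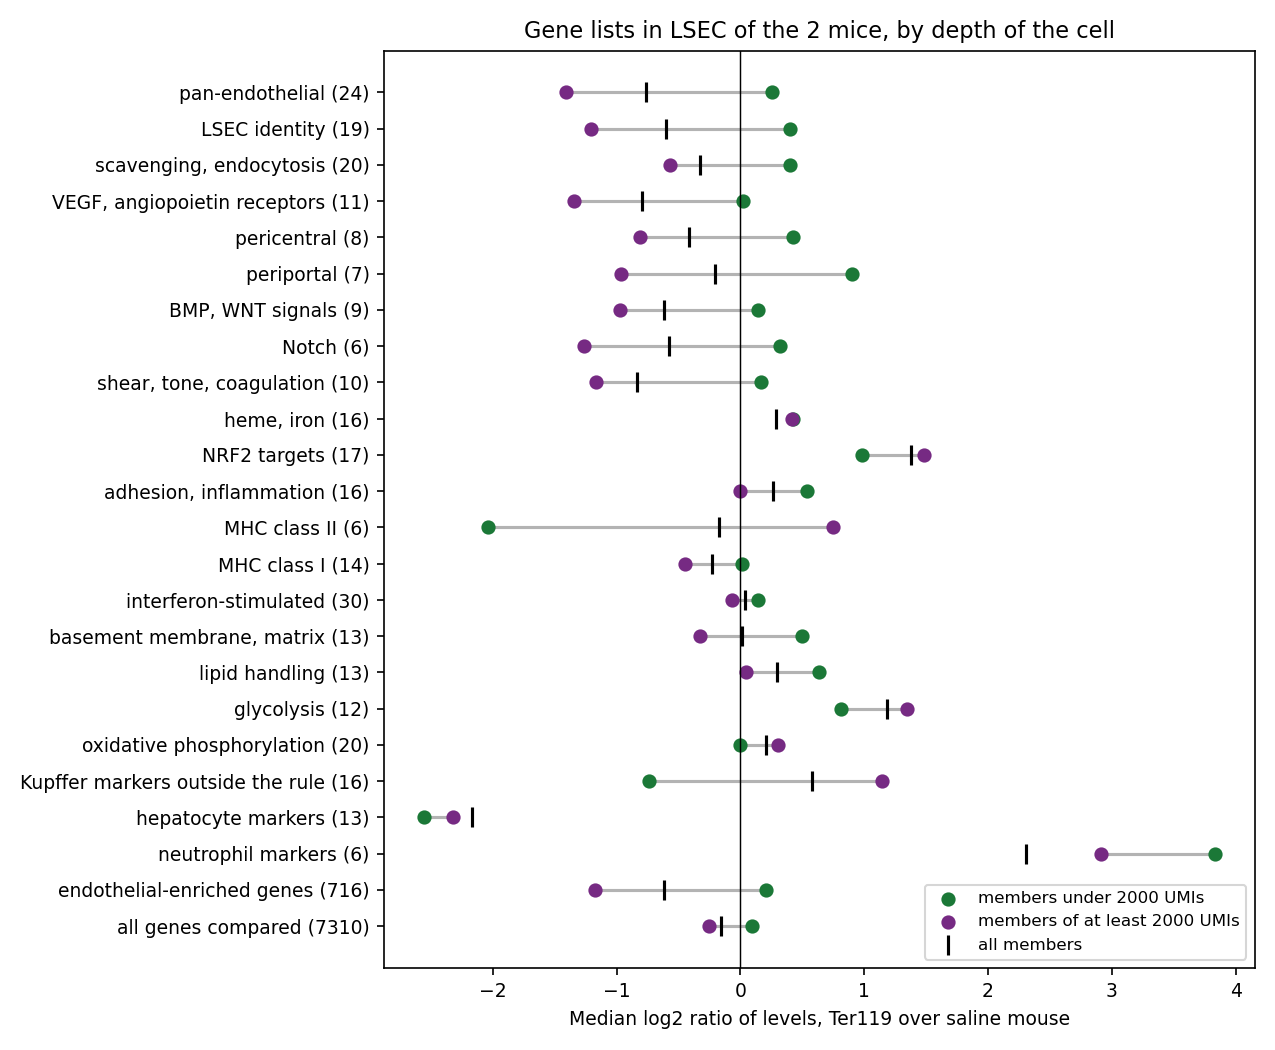
Median log2 ratio of levels, Ter119 over saline (x axis), for the gene lists (rows) in all members, in members under 2000 UMIs and in members of at least 2000 UMIs, with the number of genes that have a ratio at both depths in brackets. NRF2 targets and glycolysis lie right of 0 at both depths and hepatocyte transcripts left of it, whereas pan-endothelial and LSEC identity genes lie at 0.26 and 0.40 in shallow members and at -1.40 and -1.20 in deep members.

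A few endothelial genes were lower in Ter119 LSEC at both depths. Inhbb, which codes for the beta subunit of activin B (chr1:119415465-119422248), had 18.8 CPM in Ter119 LSEC (50 UMIs) and 91.9 CPM in saline LSEC (244 UMIs), a ratio of 0.205 (0.148 to 0.279). It had 21.1 CPM in Ter119 members and 48.6 CPM in saline members under 2000 UMIs, and 15.9 CPM in Ter119 members and 96.7 CPM in saline members at 2000 UMIs and over. Dusp1 and Fos, which were not among the endothelial-enriched genes, were lower over all members. Dusp1, a phosphatase of MAP kinases that responds early to stress, had 96.3 CPM in Ter119 LSEC and 375 CPM in saline LSEC (0.257, 0.223 to 0.295). It was lower in the Ter119 mouse in Kupffer-limit cells too, at 72.3 CPM against 153 CPM in the saline mouse. The early gene Fos had 22 UMIs in Ter119 LSEC and 66 UMIs in saline LSEC.

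Ehd3, which recycles endocytosed membrane and belongs to the rule, was compared in members chosen by the other 8 genes, where it had 1218 CPM in the Ter119 mouse and 3023 CPM in the saline mouse (0.403, 0.387 to 0.420). Chosen the same way, its ratio was 0.703 (0.641 to 0.771) in shallow members, from 2223 UMIs in the Ter119 mouse and 576 UMIs in the saline mouse. In deep members it had 817 CPM in the Ter119 mouse and 3117 CPM in the saline mouse (0.262, 0.245 to 0.281). The transcription factor Sox18 had 206 CPM in Ter119 and 314 CPM in saline shallow members, and 112 CPM in Ter119 and 478 CPM in saline deep members. Both were lower at either depth, more so in deep cells. Ltbp4, a matrix protein that binds latent TGF-beta and marks the periportal side (chr7:27305136-27337692), had 201 CPM in Ter119 members and 228 CPM in saline members under 2000 UMIs, with a ratio of 0.880 (0.666 to 1.18). In deeper members it had 107 CPM in the Ter119 mouse and 554 CPM in the saline mouse, so its overall ratio of 0.304 rested on the deep cells.

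**Figure D5:**
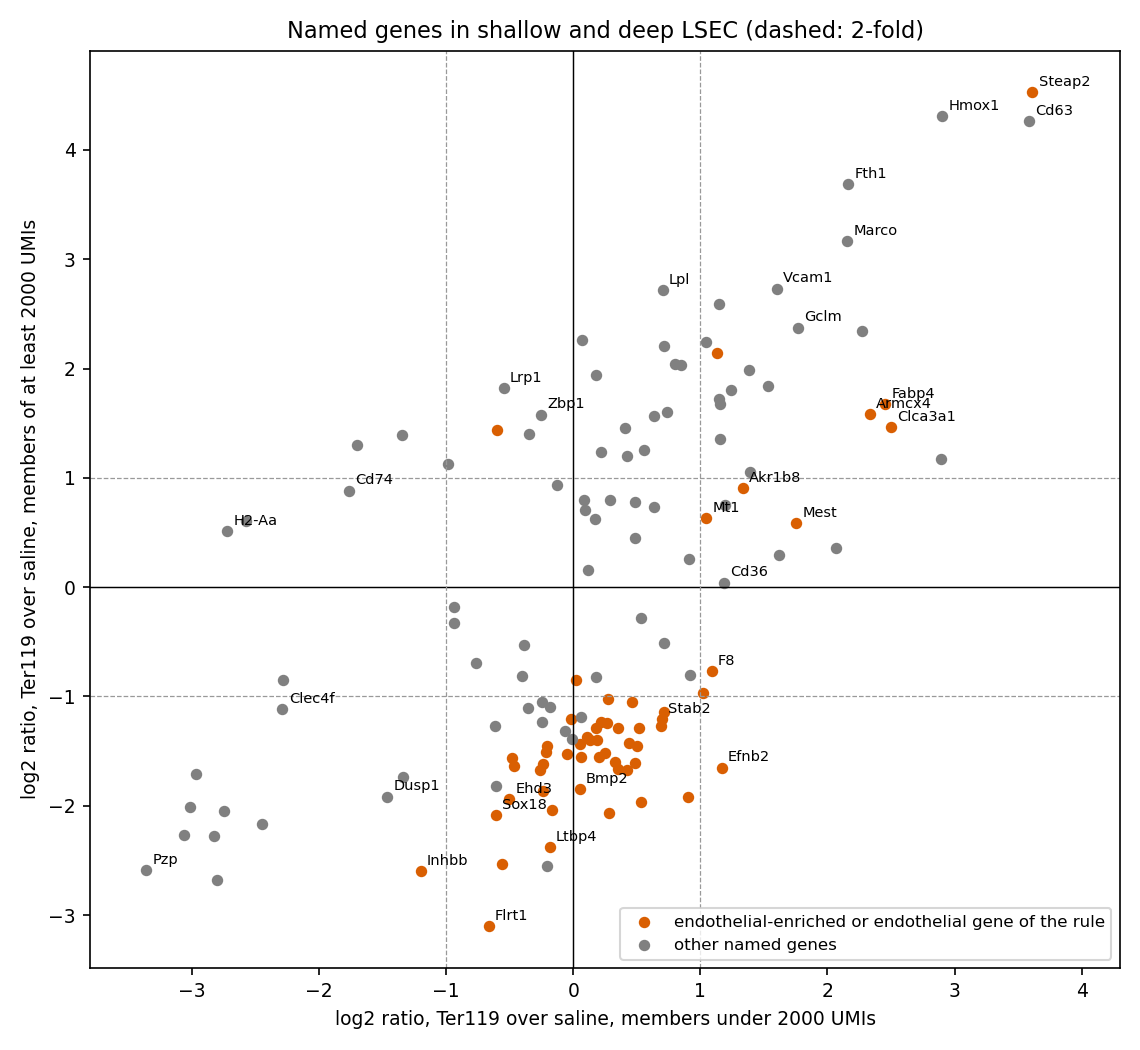
Log2 ratio of levels, Ter119 over saline, of the named genes in LSEC under 2000 UMIs (x axis) and in LSEC of at least 2000 UMIs (y axis). Orange points are endothelial-enriched genes or endothelial genes of the rule, gray points are other named genes and dashed lines mark 2-fold. Most orange points lie near 0 on the x axis and below -1 on the y axis, while Steap2, Fabp4, Armcx4, Clca3a1 and Akr1b8 lie to the upper right and Inhbb to the lower left.

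The iron-related ligands depended on depth as well. Bmp6 (chr13:38345107-38500302) had 161 CPM in Ter119 LSEC and 200 CPM in saline LSEC, a ratio of 0.804 (0.706 to 0.915). In members under 2000 UMIs it had 201 CPM in the Ter119 mouse and 198 CPM in the saline mouse (1.02, 0.756 to 1.39), and in deeper members 112 CPM in the Ter119 mouse and 201 CPM in the saline mouse (0.556, 0.456 to 0.676). The lower Bmp6 level was thus found in deep members alone. Bmp2 (chr2:133552159-133562885), a rule gene, had 916 CPM in Ter119 cells and 1946 CPM in saline cells chosen by the other 8 genes. Of cells chosen that way, shallow ones had 1193 CPM in the Ter119 mouse and 1154 CPM in the saline mouse, and deep ones had 566 CPM in the Ter119 mouse and 2035 CPM in the saline mouse. Of the inhibitory SMADs that BMP signals induce, Smad6 had 70.7 CPM in Ter119 LSEC and 157 CPM in saline LSEC, and Smad7 had 138 CPM in Ter119 LSEC and 244 CPM in saline LSEC.

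Of the ligands that pattern the lobule, Wnt2 had 121 CPM in Ter119 LSEC and 224 CPM in saline LSEC, with a ratio of 0.860 (0.627 to 1.2) in shallow members and 0.352 (0.280 to 0.438) in deep members. Rspo3, which strengthens WNT signals, had 25.2 CPM in Ter119 LSEC (67 UMIs) and 9.79 CPM in saline LSEC (26 UMIs), a ratio of 2.58 (1.62 to 4.22). Of the 67 Ter119 UMIs 55 lay in members of at least 2000 UMIs. Kit, a receptor of the central side, had 162 CPM in Ter119 and 224 CPM in saline shallow members, and 94.8 CPM in Ter119 and 296 CPM in saline deep members.

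Members were also split by the zone of the lobule. Those with a UMI of the central vein ligands Wnt2, Wnt9b or Rspo3 numbered 287 of 1514 in the Ter119 mouse and 308 of 721 in the saline mouse. Their median depth was 1606 UMIs against 1492 in members without in the Ter119 mouse, and 4231 against 2756 in the saline mouse. Of these cells, 132 in the Ter119 mouse and 267 in the saline mouse also held a UMI of the portal genes Efnb2, Ltbp4 or Ntn4, so the split did not separate central from portal cells. Of the 6 other genes of the central list, 4 in the Ter119 mouse and 5 in the saline mouse were higher in cells with a central ligand UMI beyond counting error. Thbd, which turns thrombin towards anticoagulation, had 153 CPM in Ter119 members with such a UMI and 69.5 CPM in those without (2.20, 1.66 to 2.90), and 230 CPM with and 87.0 CPM without in the saline mouse (2.65, 2.13 to 3.31). Kit had 204 CPM with and 113 CPM without in the Ter119 mouse, and 357 CPM with and 218 CPM without in the saline mouse. Plvap, a protein of endothelial diaphragms, had 232 CPM with and 67.6 CPM without in the Ter119 mouse, and 148 CPM with and 64.1 CPM without in the saline mouse. These 3 genes were higher in such cells in both mice, while Ptgs1, a prostaglandin synthase of the central list, was not in the Ter119 mouse (1.07, 0.898 to 1.27). In the saline mouse, where cells with a central ligand UMI were much the deeper ones, Lyve1 (1.37, 1.23 to 1.53), Stab2 (1.29, 1.2 to 1.38) and Mt1 (1.43, 1.31 to 1.55), which are in neither list, were higher too.

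Of the 8 genes of the portal list, 5 in the Ter119 mouse and 4 in the saline mouse were lower in the same cells beyond counting error, and none was higher beyond it. Msr1, a scavenger receptor, had 184 CPM with a central ligand UMI and 378 CPM without in the Ter119 mouse (0.487, 0.392 to 0.6), and 251 CPM with and 399 CPM without in the saline mouse (0.629, 0.547 to 0.722). Efnb2, the arterial ephrin, had 35.0 CPM with and 68.6 CPM without in the Ter119 mouse, and 81.7 CPM with and 121 CPM without in the saline mouse. Ltbp4 had 160 CPM with and 158 CPM without in the Ter119 mouse (1.01, 0.791 to 1.29), and 504 CPM with and 540 CPM without in the saline mouse (0.933, 0.838 to 1.04), so it did not separate the cells. Adam23, another portal gene, had a ratio of 1.01 (0.918 to 1.10) in the Ter119 mouse and 0.872 (0.806 to 0.943) in the saline mouse. Split by a UMI of the portal genes in place of the central ones, Msr1 was higher in cells with such a UMI in both mice, at ratios of 2.02 (1.75 to 2.34) in the Ter119 mouse and 1.52 (1.19 to 1.96) in the saline mouse. In that split Thbd had a ratio of 0.764 (0.583 to 0.998) in the Ter119 mouse and 1.82 in the saline mouse, at 394 UMIs with and 30 UMIs without. In that mouse, cells with a portal UMI had a median of 3852 UMIs and those without 1525. Steap2 had 60.7 CPM in Ter119 members with a central ligand UMI and 69.5 CPM in those without (0.874, 0.580 to 1.28), and Fabp4 had 2890 CPM with and 2408 CPM without (1.2, 1.13 to 1.27). In the saline mouse Fabp4 had 677 CPM with and 493 CPM without (1.37, 1.24 to 1.52).

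Genes of MHC class II, which presents antigen to T cells, turned with depth in the opposite sense. H2-Aa had 82.5 CPM in Ter119 members and 545 CPM in saline members under 2000 UMIs, and 648 CPM in Ter119 members and 454 CPM in saline members at 2000 UMIs and over. All 6 class II genes compared were past 2-fold lower in shallow Ter119 members, where 4.26% of all genes were, with a median log2 ratio of -2.04, and in deep members the median was 0.75. In other cells H2-Aa was higher than in LSEC, at 2131 CPM in the Ter119 mouse and 5259 CPM in the saline mouse. The class II list summed to 1896 CPM in Kupffer-limit cells of the Ter119 mouse and 9792 CPM in those of the saline mouse. A lower level in the Ter119 mouse was thus found outside LSEC too, and the part of RNA of other cells was not tested. MHC class I and interferon-stimulated genes differed little, with 0 of 14 and 1 of 30 past 2-fold higher, none past 2-fold lower, and medians of -0.23 and 0.04. Of all genes, 4.7% were past 2-fold higher and 5.25% past 2-fold lower, so such small counts say little.

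Transcripts of hepatocytes were lower in Ter119 LSEC at both depths. Of 13 markers 12 were past 2-fold lower and none past 2-fold higher, where 5.25% of all genes were lower. Their median log2 ratio was -2.17, at -2.56 in shallow and -2.32 in deep members. The 13 markers summed to 929 CPM in Ter119 LSEC and 3038 CPM in saline LSEC. In other cells the sum was 618 CPM in the Ter119 mouse and 2132 CPM in the saline mouse, so a similar ratio was found outside LSEC. Stellate cell and fibroblast markers summed to 1244 CPM in Ter119 LSEC and 686 CPM in saline LSEC, led by Dcn at 521 CPM in Ter119 LSEC and 277 CPM in saline LSEC. Of 8 compared, 3 were past 2-fold lower and none past 2-fold higher in shallow members, with a median log2 ratio of -0.86. Of all genes 4.26% were past 2-fold lower there. In deep members all 8 were past 2-fold higher, where 7.61% of all genes were, with a median of 1.49. At least 2 of these markers were found in 10.3% of Ter119 members and 14.7% of saline members. The part of such cells in the levels of Rspo3, which stellate cells also make, was not tested.

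LSEC were also set against Kupffer-limit cells by direction. Of 5923 genes compared in both populations 6 were past 2-fold higher in one and past 2-fold lower in the other. Of the 7312 genes compared in LSEC, only 4.7% were past 2-fold higher and 5.25% past 2-fold lower. The count of opposite genes would thus be small in any case, and it does not measure how far the populations agree. The growth arrest gene Gas6, a ligand of TAM receptors, had 119 CPM in Ter119 LSEC and 354 CPM in saline LSEC, while Kupffer-limit cells had 64.6 CPM in the Ter119 mouse and 16.8 CPM in the saline mouse. Plpp3, a lipid phosphatase, had 1149 CPM in Ter119 LSEC and 2822 CPM in saline LSEC, and 160 CPM in Kupffer-limit cells of the Ter119 mouse and 79.2 CPM in those of the saline mouse. The other 4 were Zbp1, Ifitm6, Ncf4 and Fgd2, which were higher in Ter119 LSEC and lower in Ter119 Kupffer-limit cells. These 6 were singled out after their values were seen, and the difference between the populations was not tested.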

How the data were processed

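Single-cell UMI counts of 2 livers were analysed, 1 Ter119 mouse and 1 saline mouse. The deposited files hold raw UMI counts per gene and barcode with no normalization, 25760 barcodes in the Ter119 mouse and 18354 in the saline mouse. Per the file headers they were made with Cell Ranger 6.0.2, while the submitters' processing notes name Cell Ranger 4.0.0, Scanpy 1.7.0, Seurat 3.2.3 and DESeq2 1.26.0 with build GRCm38.p6. The assignment of cells to mice by hashtag was not given in the sources used here, and no annotation of cell types was used.

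Cells were filtered and members chosen as in the first paragraph of the results. Counts were summed over members and divided by their UMIs without the 4 hemoglobin genes (pandas 2.3.3 and numpy 2.4.6 in python 3.11.15, with scipy 1.17.1 for intervals and matplotlib 3.10.9 for plots). Genes with at least 20 CPM in 1 mouse were compared. Ratios are Ter119 over saline with exact conditional binomial intervals, shares have exact Clopper-Pearson intervals, and a count of 0 set against more than 3 counts was put at 3 counts. With 1 mouse per treatment no test was possible and a 2-fold limit describes size only. The ratio and interval code was tested on simulated data.

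Named genes were all genes of the rule and of a core list, up to 4 genes per list with the largest log2 ratio, plus, of genes in no list, those with the 10 largest and 10 smallest ratios at 50 CPM or more, detected in at least 10% of members and highest in LSEC. For the comparison with the other cells they were the 20 with the highest ratio in both mice. Members, lists and rules were chosen with earlier results of these data known. Doublets were not called. Alternatives left out members with 2 markers of another cell type or the 8% with most UMIs, and others changed the limits, filters, depth and scaling, including TMM factors from edgeR 4.0.16. The split at 2000 UMIs below that depth, endothelial-enriched scaling, enrichment in each mouse, a Kupffer limit of 0.25% and an endothelial limit of 1% were added after seeing the data. Promoter and gene positions are from RefSeq and the reference annotation of build GRCm38.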

Additional observations from a re-analysis of the deposited data

Results flagged for a closer look

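Zbp1, an interferon-induced sensor of nucleic acids, was singled out because LSEC and Kupffer-limit cells went opposite ways past 2-fold. It had 44.8 CPM in Ter119 LSEC and 22.2 CPM in saline LSEC, a log2 ratio of 1.01, while Kupffer-limit cells had 40.0 CPM in the Ter119 mouse and 93.9 CPM in the saline mouse. In LSEC the log2 ratio was -0.25 in members under 2000 UMIs and 1.58 in members of at least 2000 UMIs. The difference between the cell populations was not tested.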

How the results depend on the processing

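No paired analysis was possible because each treatment has 1 mouse. The requirement of no Kupffer UMI gave no value, since 8 Ter119 members and 0 saline members met it. Settings at under 2000 UMIs, an endothelial share of 1%, a Kupffer share under 0.25%, scaling per endothelial-enriched UMI and genes 5-fold enriched in each mouse were chosen after seeing the data.

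The LSEC share in the Ter119 mouse and the saline mouse was 4.66% and 5.39% with at least 2000 UMIs, 23.4% and 11.1% under 2000 UMIs, 7.26% and 2.55% at up to 5% mitochondrial UMIs, and 8.0% and 5.11% without members holding 2 markers of another type. It was 10.1% and 5.73% without the 8% with most UMIs, 12.1% and 7.76% with pan-endothelial genes in the rule, 8.23% and 5.70% at an endothelial share of 1%, and 2.18% and 2.94% at a Kupffer share under 0.25%. The Ter119 share moved to 9.86% at an endothelial share of 0.5%, 10.4% with 5 of 9 genes and 10.3% after thinning. Only the 2000 UMI minimum and the 0.25% Kupffer limit put the Ter119 mouse below the saline mouse.

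The main counts were 344 higher and 384 lower. They became 670 and 1060 with at least 2000 UMIs, 666 and 966 at up to 5% mitochondrial UMIs, 628 and 869 at 5 CPM, 203 and 206 at 50 CPM, 218 and 242 at an endothelial share of 1%, and 938 and 99 per endothelial-enriched UMI. The lower count became 578 per all UMIs, 223 with TMM factors, 229 with median-of-ratios factors and 621 at a Kupffer share under 0.25%. The higher count became 211 with pan-endothelial genes in the rule and 758 under 2000 UMIs. By setting, 54 of 72 named genes (thinned) and 43 of 75 (under 2000 UMIs) stayed past 2-fold in the same direction.

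Of 26 list medians, 26 moved per endothelial-enriched UMI, 14 under 2000 UMIs and 8 with at least 2000 UMIs. With at least 2000 UMIs they were, for endothelial-enriched genes -1.18, the endothelial genes of the rule -1.43, pan-endothelial genes -1.40, LSEC identity -1.20, VEGF and angiopoietin receptors -1.34, periportal genes -0.97, Notch -1.26, MHC class II 0.75 and cell cycle 0.73. Under 2000 UMIs, with the 20 CPM filter applied anew, they were, for endothelial-enriched genes 0.20, the endothelial genes of the rule 0.055, the Kupffer genes of the rule -0.35, pan-endothelial genes 0.26, LSEC identity 0.40, scavenging 0.40, VEGF and angiopoietin receptors 0.022, pericentral genes 0.26, periportal genes 0.90, large vessel genes 0.46, BMP and WNT genes 0.084, Notch 0.35, flow and coagulation 0.27, MHC class II -2.04 and immediate early and heat shock genes 0.13. Per endothelial-enriched UMI they were, for endothelial-enriched genes -0.091, the endothelial genes of the rule -0.19, the Kupffer genes of the rule 1.47, pan-endothelial genes -0.23, LSEC identity -0.074, scavenging 0.20, VEGF and angiopoietin receptors -0.26, pericentral genes 0.11, periportal genes 0.32, large vessel genes 0.097, BMP and WNT genes -0.091, Notch -0.048, flow and coagulation -0.31, heme and iron 0.82, NRF2 targets 1.91, adhesion 0.79, MHC class II 0.35, MHC class I 0.30, interferon-stimulated genes 0.57, basement membrane 0.54, lipid handling 0.82, cholesterol synthesis 0.76, glycolysis 1.71, oxidative phosphorylation 0.73, immediate early and heat shock genes 0.11, ER stress 0.79 and cell cycle 0.68. At up to 5% mitochondrial UMIs they were, for pericentral genes -1.05, basement membrane -0.67, cholesterol synthesis -0.85 and cell cycle 2.04. Cell cycle moved to 1.17 without the 8% with most UMIs. With pan-endothelial genes in the rule they were, for pericentral genes 0.091 and MHC class II -2.05. MHC class II moved to -1.07 at an endothelial share of 1%, and at a Kupffer share under 0.25% the medians were, for the Kupffer genes of the rule 0.079, MHC class II 0.56 and cholesterol synthesis -0.38. The medians of NRF2 targets and of glycolysis were above 0 in every setting run.

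Log2 ratios that turned under 2000 UMIs were Bmp2 0.050, Sox7 0.53, Lrp1 -0.55, Nrp1 0.20, Pde2a 0.42, Nos3 0.35, Zbp1 -0.25 and Lama4 0.28, and Zbp1 was -0.20 with pan-endothelial genes in the rule. The cause of these shifts was not tested. Depth limits genes of few counts, such as Steap2, Rspo3 and Nqo1 in saline members.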
